A study of Mus musculus with 12 samples.

Results

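CXCR2 is the receptor through which neutrophils sense a gradient of ELR-motif CXC chemokines, the chemokines that draw them out of the blood. In the mouse, CXCL1, CXCL2, CXCL3 and CXCL5 are among its ligands. The 5 genes Cxcl1, Cxcl2, Cxcl3, Cxcl5 and Cxcr2 were taken by symbol from the 770 genes of an nCounter panel and all 5 were found, with no filter on their values.

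The data are from 12 A20 tumors, 4 for each of 3 treatments. A20 is a B-cell lymphoma line of Balb/c origin, and it was grown under the skin of young adult female Balb/c mice, with 1 tumor per mouse, and no altered gene is named for the hosts or the line. From about a week after implantation the tumors were injected with PBS, with a stable oil-in-water emulsion alone (SE), or with that emulsion carrying glucopyranosyl lipid A (GLA-SE, called G100 by the study). There were 3 injections, on alternate days, of 10 µg GLA in 50 µl of 2% emulsion for GLA-SE, and tumors were removed 2 h after the last. GLA is a synthetic agonist of TLR4, the receptor for bacterial lipopolysaccharide. RNA came from whole tumors, so a higher value cannot be assigned to more cells of a type or to more RNA per cell, and the 2 cannot be told apart. PBS is the control for SE and for GLA-SE, so those comparisons share the same 4 tumors. SE compared with GLA-SE asks what the agonist adds to its carrier. The sample labels give injection volume and emulsion percent for GLA-SE only, so they do not show that the SE injections matched it in these.

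Lipopolysaccharide receptors and the cytokines IL-1 and TNF switch on the ligand genes through NF-kB, in macrophages, endothelium, fibroblasts and epithelium among others. The receptor is carried mainly by mature neutrophils, which shed or take up CXCR2 after binding a ligand. Neutrophils leave the marrow under G-CSF and ligands of CXCR2 and are held there by CXCL12.

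The 4 ligand genes lie in 1 cluster on mouse chromosome 5. In the order of the RefSeq annotation it reads Cxcl5, Ppbp, Pf4, Cxcl3, Cxcl15, Cxcl1 and Cxcl2, and Pf4 is not on the panel. Cxcr2 is on chromosome 1. All 5 symbols matched RefSeq, and 4 had a promoter window, Cxcl5 being the exception. The 250 bases before the start were searched on both strands for GGG, any 3 bases and then TTCC, a simplified form of the sequence that NF-kB proteins bind. Of 32851 windows of this length in RefSeq GRCm38.p6, 4.65% held it. Cxcl1, Cxcl2 and Cxcl3 each held 3 matches, and the window of Cxcr2 held 0. The 3 windows are shown because the same 10 letters, GGGAATTTCC, recur in each at a similar distance from the start, 71, 97 and 73 bases before it. This match is close to its own reverse complement, so it was counted once on each strand, in overlap. Capitals mark the matches.
Cxcl1 (chr5:90890995-90891244, + strand): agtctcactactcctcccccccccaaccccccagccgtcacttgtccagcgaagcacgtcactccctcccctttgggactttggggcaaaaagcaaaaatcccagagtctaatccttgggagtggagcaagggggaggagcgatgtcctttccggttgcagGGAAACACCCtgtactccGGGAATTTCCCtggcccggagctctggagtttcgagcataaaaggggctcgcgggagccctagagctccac
Cxcl2 (chr5:90903649-90903898, + strand): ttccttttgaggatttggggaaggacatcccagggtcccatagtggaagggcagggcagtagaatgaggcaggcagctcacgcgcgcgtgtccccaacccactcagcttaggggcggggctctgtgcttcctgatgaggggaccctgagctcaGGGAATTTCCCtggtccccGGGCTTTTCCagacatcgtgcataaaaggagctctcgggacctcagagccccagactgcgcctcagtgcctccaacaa
Cxcl3 (chr5:90785851-90786100, + strand): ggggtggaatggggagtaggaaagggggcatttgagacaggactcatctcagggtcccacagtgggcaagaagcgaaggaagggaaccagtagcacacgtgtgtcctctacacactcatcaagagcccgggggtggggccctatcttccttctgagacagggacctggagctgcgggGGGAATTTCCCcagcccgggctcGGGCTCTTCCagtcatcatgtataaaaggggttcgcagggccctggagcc
A match is a description of the letters only, and binding was not measured.

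The values below are scaled counts, the deposited probe counts of a gene multiplied by a factor that brings the reference genes of every tumor to the same geometric mean. Total counts were 810260 to 1612415 per tumor. The factor lay between 0.69 and 1.29 except in SE replicate 4, where it was 2.09. Counts of different genes come from different probes, so the levels of 1 gene were not ranked against those of another. In PBS tumors the deposited counts were low, 13 to 17 for Cxcl2, 16 to 25 for Cxcl1 and 17 to 27 for Cxcr2, against 20, the threshold count of the study's methods. Folds over PBS for these 3 genes therefore rest on a base near that threshold.

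Cxcl1 encodes KC, a ligand made by macrophages and stromal cells. Its scaled counts were 18.6, 24.1, 12.1 and 14.8 in the PBS tumors, replicates 1 to 4. In GLA-SE tumors they were 31.0, 55.9, 756 and 243, and in SE tumors 9.64, 15.9, 73.4 and 171. Every GLA-SE tumor was above every PBS tumor, whereas only SE replicates 3 and 4 were.

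Cxcl2 encodes MIP-2, which neutrophils and macrophages also make. PBS tumors held 12.7, 13.5, 9.82 and 14.0. GLA-SE tumors held 26.0, 16.1, 358 and 119, and SE tumors 14.5, 11.6, 34.8 and 119. GLA-SE replicate 2 stood little above the PBS tumors, and SE replicate 4 equalled GLA-SE replicate 4 to 3 digits.

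Cxcl3 encodes DCIP-1, a close relative of MIP-2. PBS tumors held 35.3, 29.9, 38.5 and 37.0. GLA-SE tumors held 33.0, 58.1, 645 and 187, so replicate 1 lay within the PBS range. SE tumors held 33.1, 11.6, 34.8 and 33.4, none above the highest PBS tumor.

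Cxcl5 encodes LIX, a ligand known from epithelium and fibroblasts. PBS tumors held 45.1, 39.6, 34.8 and 37.8. GLA-SE tumors held 79.0, 69.9, 847 and 277, and SE tumors 27.6, 44.4, 79.9 and 117. All GLA-SE tumors were above all PBS tumors, and SE tumors spanned the PBS range.

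Cxcr2, the receptor, had 16.7, 23.2, 20.4 and 16.4 in PBS tumors. GLA-SE tumors held 70.04, 48.4, 493 and 105, and SE tumors 16.5, 12.7, 55.4 and 177. GLA-SE and PBS tumors did not overlap, and SE replicate 4 held more than 3 of the 4 GLA-SE tumors.

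**Figure D1:**
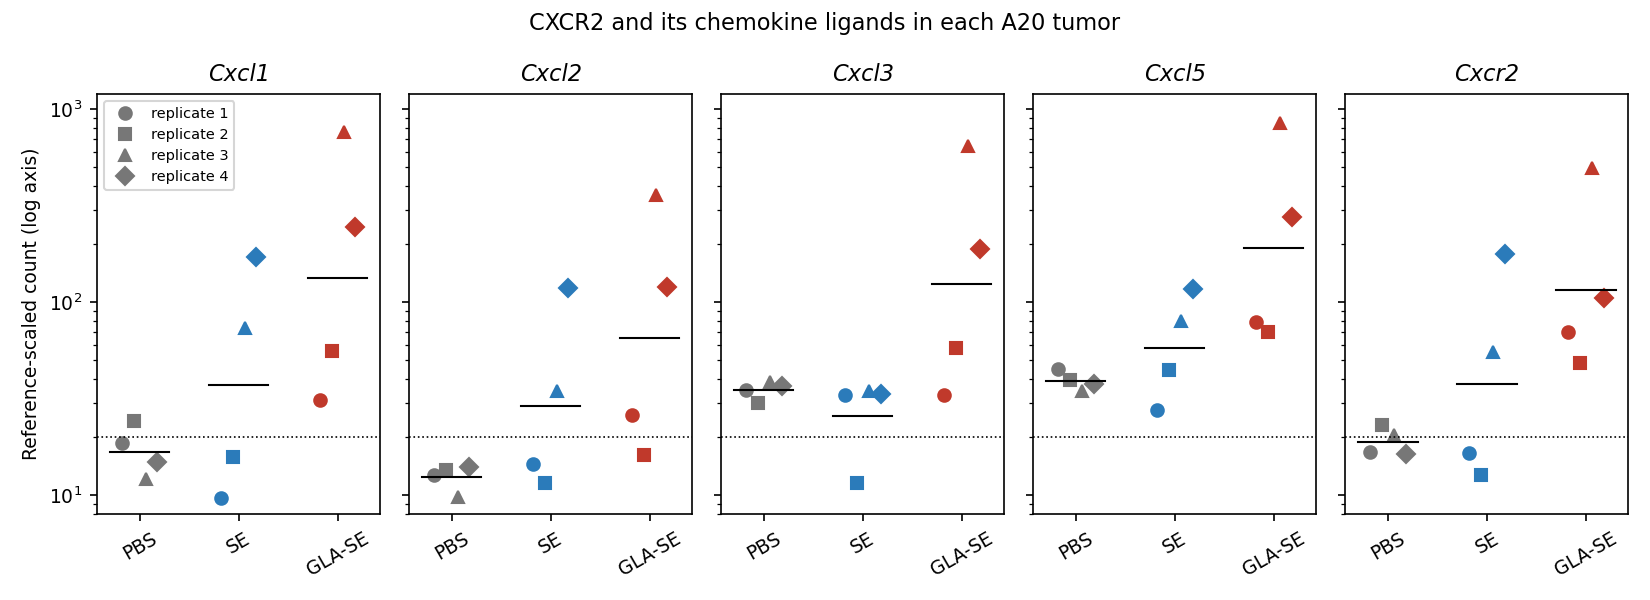
Scaled counts of Cxcl1, Cxcl2, Cxcl3, Cxcl5 and Cxcr2 (log axis) in each of 12 A20 tumors by treatment, with 1 symbol per replicate number, a line at the geometric mean of each group and a dotted line at 20. GLA-SE replicate 3 is the highest point in every panel, from 358 for Cxcl2 to 847 for Cxcl5, and SE replicates 3 and 4 are the 2 highest SE tumors in every panel, for Cxcl3 by little, at 34.8 and 33.4 beside 33.1 in replicate 1.

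The plot of scaled counts by treatment shows that the spread within GLA-SE was large and shared. Replicate 3 was the highest and replicate 4 the second of the GLA-SE tumors for 5 of 5 genes. Relative to the PBS mean, replicate 3 was 18.3-fold (Cxcl3) to 43.4-fold (Cxcl1) and replicate 4 was 5.32-fold (Cxcl3) to 14.0-fold (Cxcl1). Replicates 1 and 2 were 0.94-fold (Cxcl3, replicate 1) to 3.65-fold (Cxcr2, replicate 1). The highest over the lowest GLA-SE tumor was 10.2-fold for Cxcr2 and 24.4-fold for Cxcl1, beside 1.41-fold and 2.00-fold among PBS tumors. Across the 12 tumors Cxcl1, Cxcl2, Cxcl5 and Cxcr2 correlated at Pearson r from 0.924 to 0.963 on log2(scaled count + 1). Cxcl3 correlated with them at 0.771 to 0.879 and by rank at rho 0.399 to 0.427. These tumors share their treatment groups and each tumor's scale factor, and the coefficients are given as a description.

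All 4 ligands and the receptor rose with GLA-SE against PBS. Cxcl1 was 15.6-fold higher, a log2 fold change of 3.96 ± 0.98 (SE, n = 4 and 4, adjusted p = 0.00736, edgeR). Cxcl2 was 10.3-fold higher at 3.37 ± 0.93 (adjusted p = 0.0120), and Cxcr2 9.28-fold higher at 3.21 ± 0.75 (adjusted p = 0.00599). Cxcl5 was 8.08-fold higher at 3.01 ± 0.78 (adjusted p = 0.00895). Cxcl3 had the smallest change of the 5, 6.52-fold at 2.71 ± 0.85 (adjusted p = 0.0200). The exact permutation test, two-sided over the 70 assignments of 4 tumors against 4, gave p = 0.0286 for Cxcl1, Cxcl2, Cxcl5 and Cxcr2, the smallest it can give. For Cxcl3, where the groups overlapped, the exact test gave p = 0.114. The 5 of 5 called higher stand beside 513 of the 750 panel genes tested, 68.4%, with 3 called lower, 0.4%, so being called was common on this panel. Without overlap between the groups there were 4 of 5, beside 63.7% of the panel. In size the 5 ranked 6, 13, 17, 20 and 28 of 750 by log2 fold change, with a median of 3.21 where the panel's median was 0.90.

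GLA-SE replicate 3 carried much of the size of these folds. Without it the log2 fold changes were 2.66 for Cxcl1, 2.10 for Cxcl2, 1.39 for Cxcl3, 1.85 for Cxcl5 and 1.95 for Cxcr2, each still called, with adjusted p between 0.000713 (Cxcr2) and 0.0445 (Cxcl3, edgeR). In that fit 488 of the 750 panel genes were called. The panel's upward shift depends on the scaling. When every tumor was scaled to the panel median, the panel's median log2 fold change went from 0.90 to -0.40, and 61 panel genes were called higher and 307 lower. Cxcl1 at 2.49 and Cxcr2 at 1.73 were then the 2 of 5 still called. Under the same panel median scaling Cxcl2, Cxcl3 and Cxcl5 were at 1.92, 1.23 and 1.57 with adjusted p of 0.0629, 0.162 and 0.0615 (edgeR). Under TMM scaling 148 panel genes were higher and 168 lower, and 4 of the 5 were called. No scaling turned the direction of any of the 5.

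**Figure D2:**
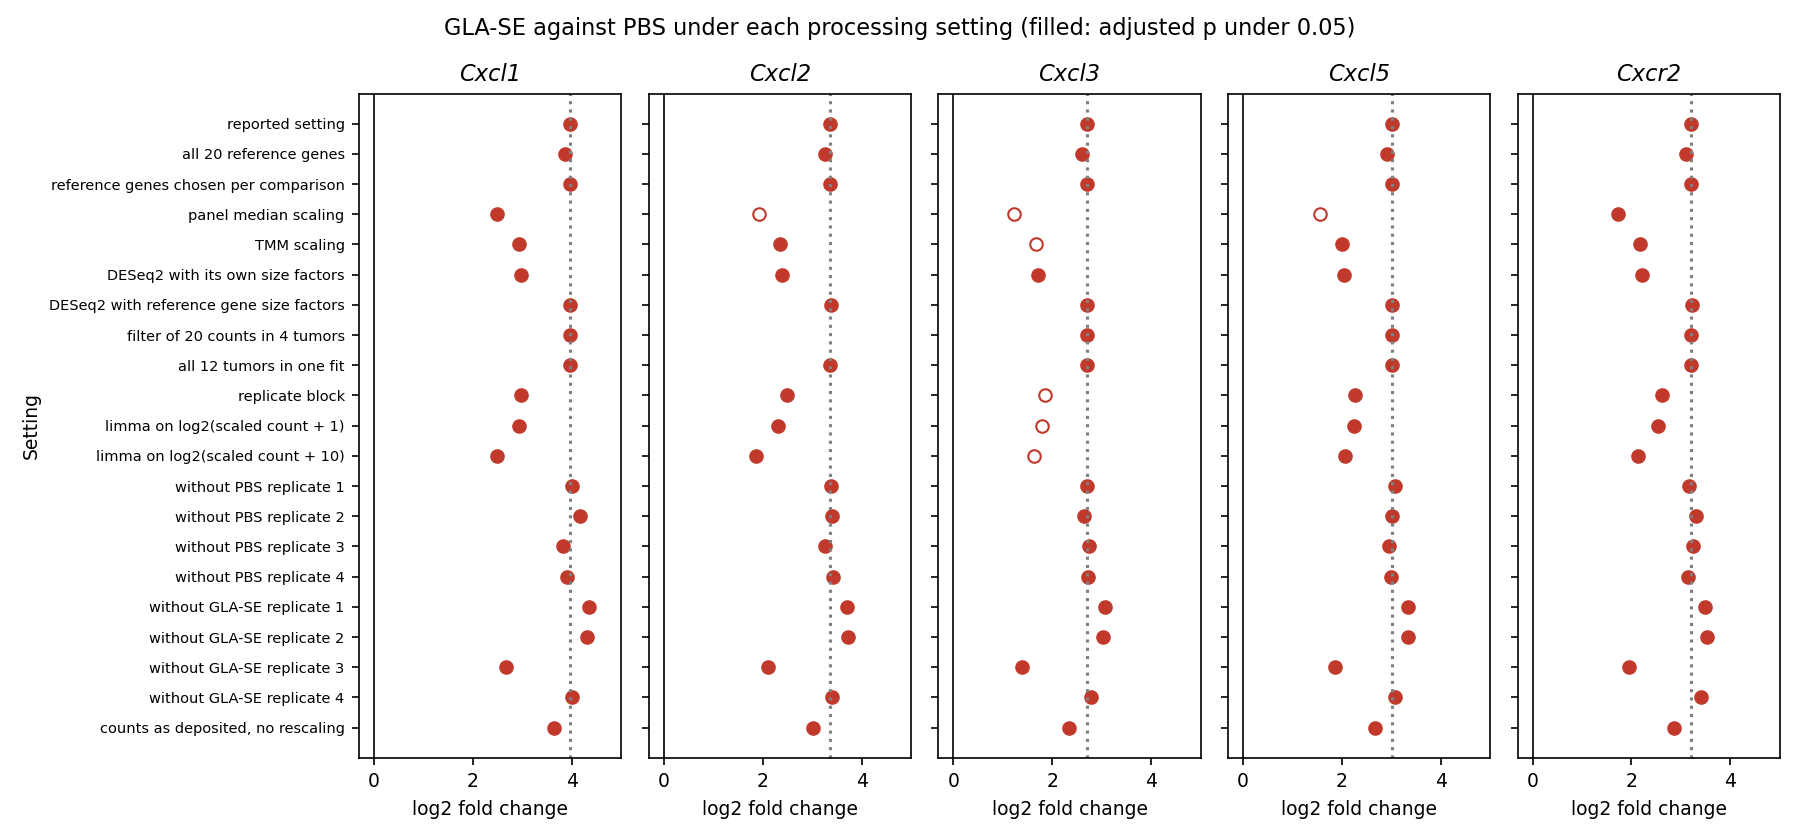
The log2 fold change of GLA-SE against PBS for each gene (x axis) under each processing setting (y axis), filled where the adjusted p was under 0.05, with a dotted line at the reported value. All points are above 0, Cxcl3 is open under 5 settings, and Cxcl2 has no point under the filter of 20 counts in 4 tumors, which removed it.

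In the plot of fold changes by setting, panel median scaling and leaving out GLA-SE replicate 3 were among the 3 lowest values for each of the 5 genes. Cxcl3 lost its call under 5 settings: panel median scaling, TMM scaling (1.67, adjusted p = 0.0980), both limma fits and the fit with the replicate number as a block (1.85, adjusted p = 0.0650).

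SE against PBS gave log2 fold changes of 1.92 ± 0.87 for Cxcl1, 1.79 ± 0.74 for Cxcl2 and 1.73 ± 0.82 for Cxcr2 (SE, n = 4 and 4, adjusted p = 0.256 for each, edgeR). Cxcl5 was at 0.76 ± 0.46 (adjusted p = 0.304) and Cxcl3 at -0.32 ± 0.37 (adjusted p = 0.558). None of the 5 was called, and neither was any panel gene, 0%. By edgeR's unadjusted p, 134 of 750 genes, 17.9%, were under the threshold of 0.05, among the 5 Cxcl2 alone at 0.0424. By DESeq2 the panel count was 9 with its own size factors and 53 with those of the reference genes, and 0 of the 5. With the reference gene size factors DESeq2 gave no adjusted p for Cxcl2 and Cxcl3, so these genes could not be called there. The 95% intervals of the log2 fold changes ran from -0.08 to 3.92 for Cxcl1 and from -0.14 to 3.61 for Cxcr2, and both include 0. The interval of Cxcl2 began at 0.08. For Cxcl3 the interval was -1.17 to 0.52 and for Cxcl5 -0.30 to 1.81.

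The SE values split by tumor. Relative to the PBS mean, SE replicate 4 was 9.82-fold for Cxcl1, 9.50-fold for Cxcl2 and 9.25-fold for Cxcr2, but 2.97-fold for Cxcl5 and 0.95-fold for Cxcl3. SE replicate 3 was 4.22-fold for Cxcl1, 2.89-fold for Cxcr2 and 0.99-fold for Cxcl3, and SE replicates 1 and 2 were between 0.33-fold (Cxcl3) and 1.16-fold (Cxcl2). SE replicates 3 and 4 also held more RNA of epithelium, stroma and macrophages. The summed counts of 3 epithelial markers were 2011 and 6787 in them, beside 309 and 315 in SE replicates 1 and 2, 205 to 548 in PBS and 432 to 530 in GLA-SE tumors. The sums of 4 fibroblast markers, most of it Col3a1 and Col1a1, were 27837 and 119873, beside 2927 and 3724 in SE replicates 1 and 2. Those of 5 endothelial markers were 806 and 2991, beside 367 and 466, and those of 10 monocyte and macrophage markers 76142 and 111696, beside 25563 and 32193. PBS tumors held 3571 to 8557, 400 to 607 and 30244 to 39163 in the same order. None of these markers had deposited counts under 20 in all 4 SE tumors, and their part in the result was not tested. Without SE replicates 3 and 4, Cxcl1, Cxcl5 and Cxcr2 were at -0.47, -0.14 and -0.37 against PBS, none called, so the sign of these 3 rests on those tumors.

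GLA-SE against SE gave log2 fold changes of 3.03 ± 0.96 for Cxcl3, 2.25 ± 0.90 for Cxcl5 and 2.03 ± 1.22 for Cxcl1, with 1.56 ± 1.13 for Cxcl2 and 1.47 ± 1.05 for Cxcr2 (SE, n = 4 and 4). None of the 5 was called at an adjusted p of 0.156 for Cxcl3, 0.223 for Cxcl5, 0.437 for Cxcl1 and 0.553 for Cxcl2 and Cxcr2 (edgeR), beside 16 of 750 panel genes, 2.13%. The groups overlapped for all 5 genes. Cxcl3 and Cxcl5 had an unadjusted p under 0.05 (0.0133 and 0.0353, edgeR), as did 18.5% of the panel. The 95% intervals were 0.82 to 5.24 for Cxcl3 and 0.20 to 4.31 for Cxcl5, while those of Cxcl1 (-0.77 to 4.82), Cxcl2 (-1.02 to 4.15) and Cxcr2 (-0.95 to 3.89) included 0. Cxcl3 and Cxcl5 passed in DESeq2 with either set of size factors (adjusted p between 0.00544 and 0.0410). DESeq2 called 72 of 750 panel genes with its own size factors and 108 with those of the reference genes. In 1 edgeR fit to all 12 tumors Cxcl3 alone passed (adjusted p = 0.0406), beside 79 of 750 panel genes. Without SE replicates 3 and 4, 424 of the 750 panel genes were called and 1 of the 5, Cxcr2 at 3.59 (adjusted p = 0.0404, edgeR).

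**Figure D3:**
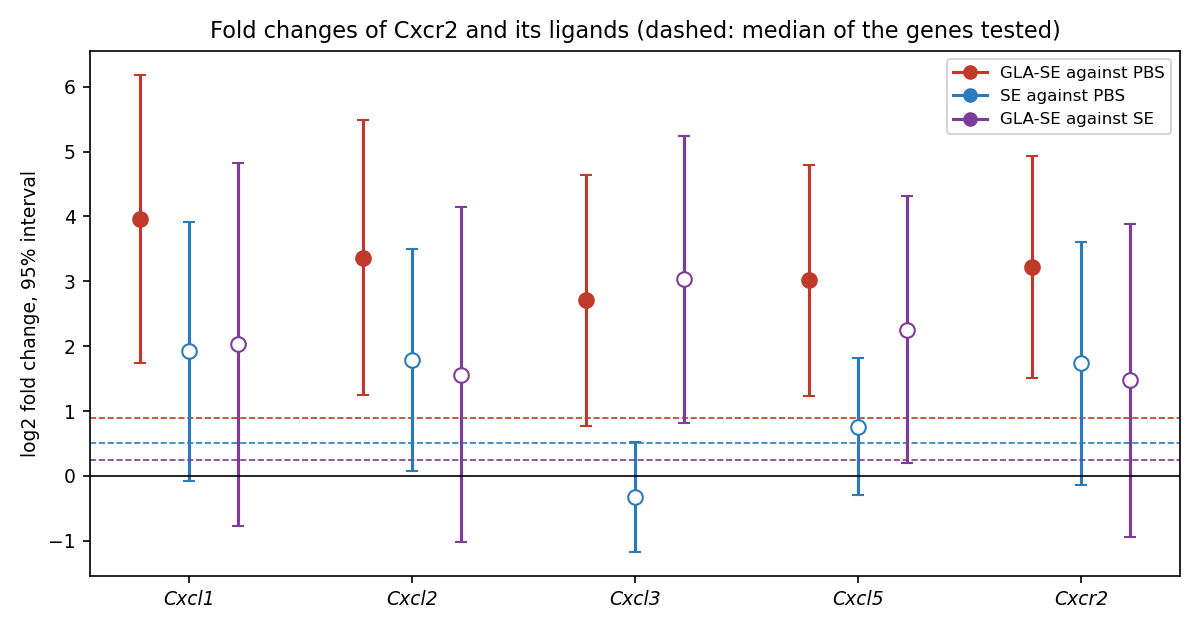
The log2 fold change of each gene with its 95% interval (y axis) in the 3 comparisons, filled where the adjusted p was under 0.05, with dashed lines at the median of the 750 genes tested. The 5 GLA-SE against PBS intervals lie above 0, and Cxcl3 is the only gene with a value below 0 for SE against PBS, -0.32.

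In the plot of fold changes by comparison Cxcl3 was highest of the 5 for GLA-SE against SE and lowest for both comparisons with PBS. Its difference from the other ligands did not pass a test (exact permutation p = 0.114 for SE against PBS). Its PBS level of 29.9 to 38.5 was also the level of 3 of the 4 SE tumors.

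Of the other genes of this receptor system, edgeR called none of 3 in any comparison. Cxcl15, encoding lungkine, a ligand known from lung epithelium, was at 1.28 for GLA-SE against PBS (adjusted p = 0.0585). Its deposited counts were 5 to 17 in PBS tumors and under 20 in 3 of the 4 GLA-SE tumors. The scaled count of Cxcl15 reached 465 in SE replicate 4 and was 3.78 to 46.8 in the other 11 tumors. Ppbp, the platelet chemokine that gives rise to NAP-2, was 40.0 to 202 in PBS, 129 to 257 in GLA-SE and 16.9 to 56.5 in SE tumors, with log2 fold changes of 0.46, -1.85 and 2.31 for GLA-SE against PBS, SE against PBS and GLA-SE against SE (adjusted p = 0.374, 0.256 and 0.0609, edgeR). DESeq2 called Ppbp in the last 2 of these comparisons with either set of size factors, at adjusted p of 0.0114 and 0.0306 for SE against PBS, its own factors first. Cxcr1, the related receptor, was at 0.34 for GLA-SE against PBS, and its deposited counts were under 20 in all 4 GLA-SE tumors.

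Of 5 genes of neutrophil supply, 4 were called higher with GLA-SE against PBS, beside 68.4% of the panel, so the count says nothing particular of the list. Csf3, encoding G-CSF, was at 2.25 and its receptor gene Csf3r at 2.23. Csf3 fell short of the threshold without PBS replicate 3 or 4 (adjusted p = 0.0545 and 0.0509, edgeR) and was at 1.06 without GLA-SE replicate 3. Cxcl12, the chemokine that retains neutrophils in marrow, was at 1.37, from 738 to 989 in PBS to 1622 to 2957 in GLA-SE tumors, and its highest value was 5223 in SE replicate 4. The count of 4 became 2 without PBS replicate 4, where 459 of 750 panel genes were called higher. Under panel median scaling 0 of the 5 rose and 1 fell, beside 61 of 750 panel genes higher and 307 lower.

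Of 9 genes for the cytokines that induce the ligands and for their receptors, 6 rose, beside 68.4% of the panel. Il1b was at 5.20, the highest log2 fold change on the panel, with 71.5 to 143 in PBS tumors and 432, 1290, 12243 and 2464 in GLA-SE tumors. Il1a was at 3.88. GLA-SE replicate 3 stood out here as for the ligands, and without it the values were 3.64 and 1.99. Tnf was at 0.97 (adjusted p = 0.0585). Under panel median scaling 2 of the 9 rose and 1 fell, beside 61 of 750 panel genes higher and 307 lower.

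All 9 genes from TLR4 to NF-kB rose in the reference scaling, beside 68.4% of the panel. Among them were the co-receptor gene Cd14 at 3.71, the inhibitor genes Tnfaip3 at 1.86 and Nfkbia at 1.51, and Tlr4 itself at 0.52. Without GLA-SE replicate 3 Cd14 was at 2.00, Tnfaip3 at 1.09 and Nfkbia at 0.84. The list's direction depends on the scaling, since 1 rose and 6 fell under panel median scaling and 1 rose and 2 fell under TMM scaling. Of the 750 panel genes, 61 were higher and 307 lower under panel median scaling, and 148 and 168 under TMM scaling.

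All 9 adhesion genes rose as well, again beside 68.4% of the panel. Sele, encoding E-selectin, the endothelial selectin that slows neutrophils, was at 2.28. Its deposited counts in PBS tumors were 14 to 18, under 20 in all 4, so this fold rests on a low base. The integrin genes Itgam and Itgb2, whose products form Mac-1, were at 1.57 and 1.17, and Icam1, encoding their endothelial partner, at 1.47. Under TMM scaling 5 of the 9 rose, beside 148 of 750 panel genes. Under panel median scaling 1 rose and 1 fell, beside 61 of 750 panel genes higher and 307 lower.

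Of 7 other CXC chemokine genes 5 rose, again beside 68.4% of the panel, with the interferon-induced T-cell attractants Cxcl11 at 2.94, Cxcl10 at 2.05 and Cxcl9 at 1.79. These 3 were also called against SE, at 2.27, 2.11 and 1.42 (adjusted p = 0.0273, 0.00977 and 0.0164, edgeR). Cxcl10 ranged from 544 to 985 in PBS, 616 to 928 in SE and 1994 to 4095 in GLA-SE tumors. The calls against SE are near the threshold, and without SE replicate 3 none of the 3 held (adjusted p from 0.0531 to 0.114, edgeR), nor did any under panel median or TMM scaling. All 4 monocyte-attracting CC chemokine genes rose against PBS, beside the same 68.4%, Ccl7 at 2.26 and Ccl2 at 1.68. Under panel median scaling 1 of the 4 did, beside 61 of 750 panel genes.

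Neutrophil markers were read as 2 lists, whose difference was not tested. Of 6 surface and cytosol markers 5 rose with GLA-SE against PBS, beside 68.4% of the panel, Cxcr1 being the exception. S100a8, a calprotectin subunit abundant in neutrophils and shared with monocytes, was at 5.04, with 72.5 to 103 in PBS tumors and 569, 800, 8071 and 1801 in GLA-SE tumors. Fpr2, a formyl peptide receptor gene, and Trem1 were at 2.28 and 2.27, and Il1r2 at 2.00. Deposited counts of Trem1 in PBS tumors were 14 to 23, under 20 in 2 of the 4. Without GLA-SE replicate 3 S100a8 was at 3.62, Trem1 at 1.33 and Il1r2 at 1.40. The summed surface list was 537 to 663 in PBS, 356 to 1479 in SE and 1816 to 12678 in GLA-SE tumors, highest in GLA-SE replicate 3. Under panel median scaling 2 of the 6 rose and 1 fell, beside 61 of 750 panel genes higher and 307 lower. Of 7 granule genes 1 rose, Lcn2 at 3.74, which epithelium and macrophages also make, and which was at 3571 in SE replicate 4. Mpo, the myeloperoxidase of primary granules, was at -0.02, with 28.0 to 48.6 in GLA-SE and 31.2 to 42.5 in PBS tumors. Mmp9, the gelatinase gene, was at 0.41 against PBS (adjusted p = 0.258) and at 1.72 against SE (adjusted p = 0.0229, edgeR), where 105 to 131 in SE tumors lay below 283 to 484 in GLA-SE tumors. PBS tumors held 154 to 406, overlapping the GLA-SE range and all above the SE tumors. Mmp9 was at -1.31 for SE against PBS (adjusted p = 0.256, edgeR). For GLA-SE against SE without SE replicate 3, Mmp9 was at 1.69 (adjusted p = 0.114, edgeR). Elane, Ctsg, Ltf and Camp had deposited counts under 20 in all 4 GLA-SE tumors. Mpo, Elane, Ctsg, Ltf and Camp are transcribed in marrow precursors more than in circulating neutrophils. The cause of their values here was not tested.

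**Figure D4:**
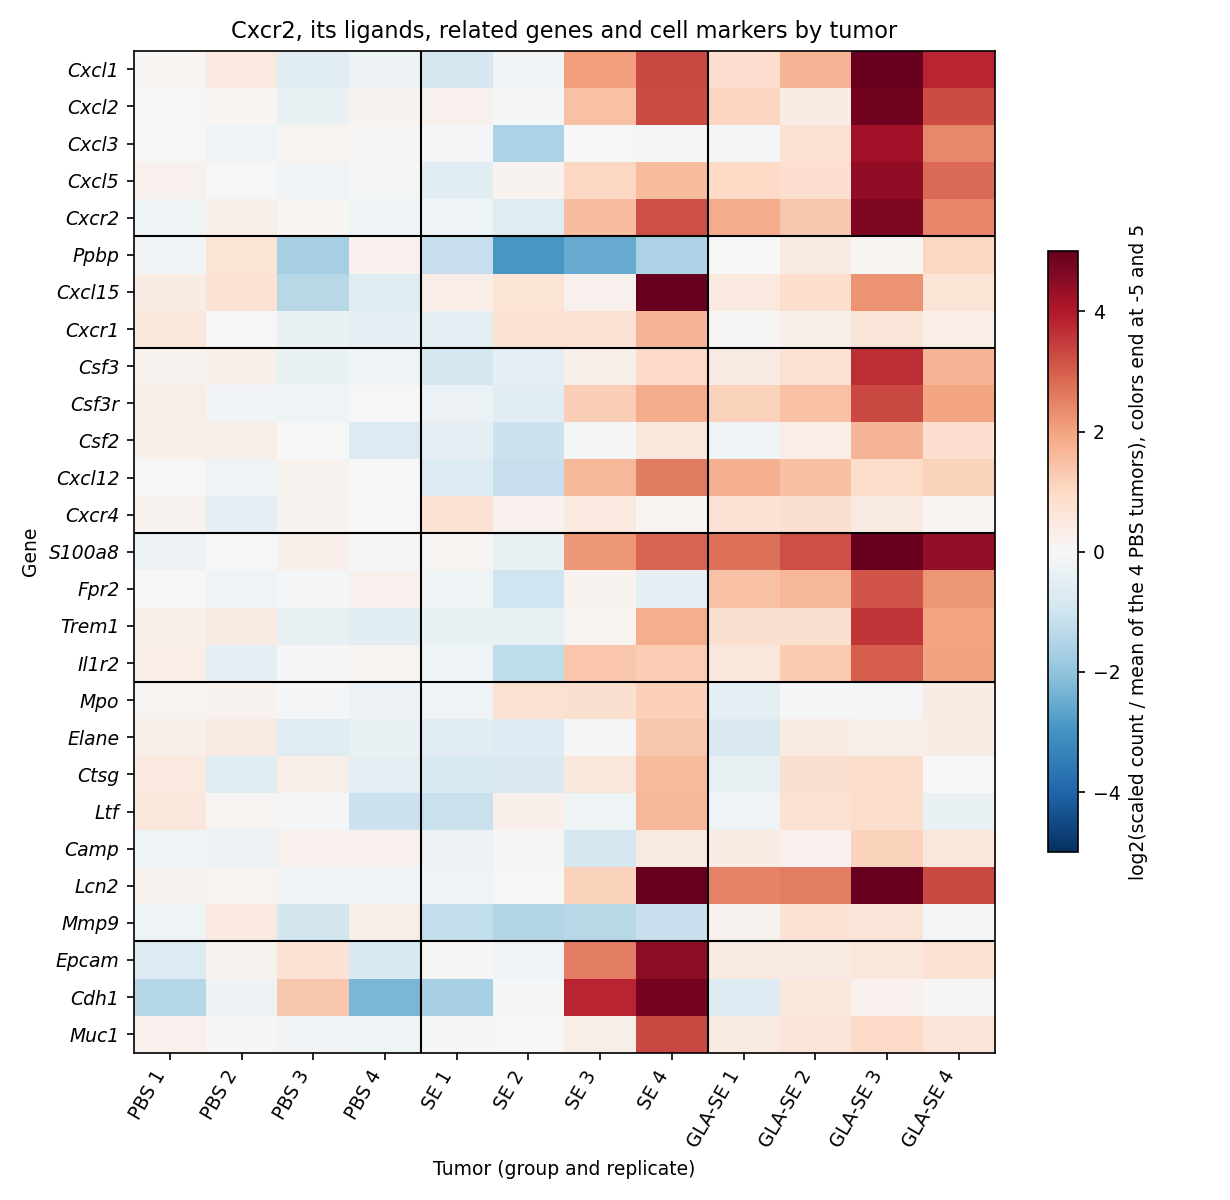
Scaled counts relative to the mean of the 4 PBS tumors (log2, color) for CXCR2, its ligands, related genes and cell markers (rows) in each of 12 tumors (columns), in blocks by role. GLA-SE replicate 3 is darkest for the ligands, Cxcr2 and S100a8, while SE replicate 4 is red for these genes except Cxcl3 and dark for Cxcl15, Lcn2 and the epithelial markers.

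The map of tumors shows Cxcl1, Cxcl2, Cxcl5, Cxcr2, Csf3 and the surface markers highest in GLA-SE replicate 3 among the GLA-SE tumors, and Cxcl3 too, though Cxcl3 in replicate 1 was within the PBS range, with the granule rows other than Lcn2 near the PBS level. Markers of other cells moved with GLA-SE as well, and their counts stand beside 68.4% of the panel called higher against PBS. All 10 monocyte and macrophage markers rose, with sums of 30244 to 39163 in PBS, 25563 to 111696 in SE and 87368 to 123293 in GLA-SE tumors. All 9 endothelial and fibroblast markers and 1 of 3 epithelial markers rose, and of 10 B-cell markers, which the lymphoma itself carries, 1 rose and 2 fell, with 0 to 2 rising when single tumors were left out. Under panel median scaling the counts were 3 of 10 higher for monocytes and macrophages, 0 of 9 higher and 1 lower for endothelium and fibroblasts, and 10 of 10 lower for B cells. Those counts stand beside 61 of 750 panel genes called higher and 307 lower under that scaling. No marker list was tested for its part in the ligand values.

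The genes whose pattern was most like the mean of the 5 on log2(scaled count + 1), over 12 tumors and 672 candidate genes, were Cd14 (Pearson r = 0.988), Il6 (0.987), Trem1 (0.968), Csf3r (0.964) and Csf3 (0.962). Without GLA-SE replicate 3, over 11 tumors, these coefficients were 0.973, 0.970, 0.928, 0.942 and 0.923. Il6 went from 10.7 to 15.7 in PBS tumors to 23.0, 51.6, 694 and 118 in GLA-SE tumors. Taken singly, Cxcl1 was most like Il6 (0.980), Cxcl2 most like Cxcl1 (0.959), Cxcl5 most like Cd14 (0.974) and Cxcr2 most like Irak3 (0.969). Cxcl3 was most like Tnf (0.968), and Tnf in SE tumors was 152 to 215 beside 184 to 235 in PBS tumors. All coefficients rest on tumors that share treatment and scale factor, and no p is given.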

How the data were processed

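The deposited table holds counts of barcoded probes for 770 genes in 12 A20 tumors, measured by the authors on nCounter with the mouse panel for cancer immune profiling, with 1 tumor from each of 12 mice. The methods name nSolver normalization and a threshold count of 20, but the deposited values are whole, and their reference genes differ between tumors, so they were taken as raw. The platform involves no alignment. Groups came from the sample labels, and 0 value columns lacked a sample. Of 20 reference genes, 16 were kept by stepwise geNorm over the 12 tumors, and each tumor was scaled to their geometric mean. The other 750 genes were compared pairwise with the edgeR 4.0.16 quasi-likelihood test in R 4.3.3, with no covariate and no filter on low counts, Benjamini-Hochberg over 750 genes and a threshold of 0.05. A two-sided exact permutation test over 70 assignments used log2(scaled count + 1). Alternatives were other reference sets, panel median and TMM scaling, DESeq2 1.42.0, limma 3.58.1 with pseudocounts of 1 and 10, a filter of 20 counts in 4 tumors, 1 fit to all 12 tumors, a replicate block and leaving out each tumor. The fits were tested on simulated data.

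Low counts and the number of tumors, 4 per group, limit the precision. Members and gene lists were chosen with earlier results of these data known, and so were the tests. Named genes are the 5 members, the other ligand and receptor genes, list genes with an adjusted p under 0.05 in any comparison, and the 5 genes per member with the highest Pearson r among those with a mean scaled count of at least 20. Mpo, Elane, Ctsg, Ltf and Camp were named after their values were seen. Replicate numbers were not taken as pairs: same-numbered tumors' deviations correlated at -0.25 to 0.18. Promoter sequences are from RefSeq (GRCm38.p6). Figures were drawn with matplotlib 3.10.9.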

Additional observations from a re-analysis of the deposited data

Results flagged for a closer look

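In groups of 4 tumors, 14 single values of 120 groups searched, over 40 genes, lay far from the other 3 by Dixon's test on scaled counts, not logged. Chance gives about 5% for independent, unselected groups of normally distributed values. Unlogged counts need not be so distributed, and the groups come from the same 12 tumors. Some of the 40 genes were also named for their calls or their likeness to the 5 members in these same tumors, so that rate cannot judge the 14. Of the 14, 10 were in GLA-SE replicate 3 and 3 in SE replicate 4. Among the 15 groups of Cxcl1, Cxcl2, Cxcl3, Cxcl5 and Cxcr2 there were 2. Cxcl3 was low in SE replicate 2 at 11.6, where the other SE tumors held 33.1 to 34.8. Cxcr2 was high in GLA-SE replicate 3 at 493, where the others held 48.4 to 105.

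The other high values in GLA-SE replicate 3 were 46.8 for Cxcl15, 345 for Csf3, 1529 for Il1a, 7037 for Cd14, 4635 for Nfkbia, 2830 for Tnfaip3, 8071 for S100a8, 2499 for Lcn2 and 694 for Il6. The next highest GLA-SE tumor held 18.3, 86.7, 184, 1208, 1597, 845, 1801, 765 and 118 in the same order. The high values in SE replicate 4 were 465 for Cxcl15, 58.4 for Trem1 and 3571 for Lcn2, and the next highest SE tumor held 15.9, 18.0 and 174. The causes were not tested.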

How the results depend on the processing

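For the log2 fold changes of the 5 genes, 294 values under alternatives kept their direction and side of the threshold, 8 passed it where the reported fit did not, 7 lost it and 3 reversed. Those 3 came from leaving out SE replicates 3 and 4 for SE against PBS, an alternative chosen after seeing the data, at -0.47 for Cxcl1, -0.14 for Cxcl5 and -0.37 for Cxcr2. Counted among the 294 were Cxcl2 and Cxcl3 for SE against PBS in DESeq2 with reference gene size factors, which gave them no adjusted p. For GLA-SE against PBS, 2 of the 5 genes were called under panel median scaling, beside 368 of 750 panel genes. The panel count of 516 became 316 under TMM scaling, 342 in DESeq2 with its own size factors and 255 in 1 fit to all 12 tumors. Leaving out any single tumor kept 5 of 5 called, beside 443 to 504 of the 750 panel genes. For SE against PBS, 0 panel genes became 9 and 53 in DESeq2 with its own and with reference gene size factors, and 6 without SE replicates 3 and 4. For GLA-SE against SE, 16 panel genes became 0 under panel median scaling, 3 under TMM scaling, 72 and 108 in DESeq2 with its own and reference size factors, and 79 in 1 fit to all 12 tumors. Leaving out single tumors gave 4 (GLA-SE replicate 2 or 4, or SE replicate 3) to 105 (SE replicate 4). Of the 5 genes, 2 were called in DESeq2 with either set of size factors and 1 in the fit to all 12 tumors. Among alternatives chosen after seeing the data, unscaled counts gave 89 panel genes and 2 of the 5, leaving out SE replicates 3 and 4 gave 424 and 1 of the 5, and leaving out GLA-SE replicate 3 with SE replicate 4 gave 52. With the replicate number as a block, although the numbers do not pair the tumors, 4 of the 5 genes were called for GLA-SE against PBS, beside 439 of 750 panel genes. For GLA-SE against SE that fit called 0 panel genes. The causes were not tested. Counts near 20 in PBS tumors limit the precision of the folds of Cxcl1, Cxcl2 and Cxcr2.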

Other observations

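The difference between Cxcl3 and the other ligands was looked at after its SE values were seen. The log2 ratio of Cxcl3 to the mean of Cxcl1, Cxcl2 and Cxcl5 averaged 0.76 ± 0.37 in PBS, 0.06 ± 0.34 in GLA-SE and -0.61 ± 1.23 in SE tumors (SD, n = 4 each). Its level depends on the probes, and it was compared between groups only. In two-sided exact permutation tests it was 0.70 lower in GLA-SE than in PBS tumors by means (p = 0.0571), and the p was 0.114 for SE against PBS and 0.371 for GLA-SE against SE. Adjusted over the 3 comparisons by Benjamini-Hochberg these exact permutation values were 0.171, 0.171 and 0.371, so no difference passed the threshold. The ratio ranged from 0.33 to 1.20 in PBS, from -0.27 to 0.53 in GLA-SE and from -1.97 to 1.02 in SE tumors.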
